A study of Mus musculus with 10 samples.

Results

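The basement membrane glycoproteins described here are 10 genes: *Lama1*, *Lama5*, *Lamb1*, *Lamb2*, *Lamc1*, *Nid1*, *Nid2*, *Hspg2*, *Agrn* and *Sparc*. They were taken by name from the 23197 genes with a unique name in a single-cell count table, and all 10 were found. Mouse embryonic fibroblasts (MEFs), taken from ICR embryos according to the methods of the study, were exposed to the C6FAE cocktail (CHIR99021, an inhibitor of the TGF-β receptor, Forskolin, AM580 and EPZ004777), which turns them into cells like those of the extraembryonic endoderm (XEN-like cells). Fibroblasts before the chemicals are d0. Treated cells were picked by hand on days 1, 2, 3, 4, 5, 6, 8, 12 and 20, and all of them had received the same cocktail, so that no treated group lacks it. The methods of the study also list valproic acid and basic FGF in the reprogramming medium, while its account of this time course names C6FAE alone. The cell names give the day. The day 6 group is named d6p, where the p is not explained, and d8c and d12c are cells picked from colonies on days 8 and 12.

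A basement membrane is a thin sheet of matrix on which epithelia rest. Laminins, each built of an α, a β and a γ chain, polymerise on the cell surface and start the sheet. Nidogens link laminin to the type IV collagen network, and the proteoglycans perlecan (*Hspg2*) and agrin (*Agrn*) bind laminin and growth factors and tie the sheet to receptors on the cell. Sparc is a calcium- and collagen-binding glycoprotein of the matrix around cells. Parietal endoderm, an extraembryonic tissue to which XEN cells are related, is known for laying down a thick basement membrane (Reichert's membrane), rich in laminin with the α1, β1 and γ1 chains. Fibroblasts secrete laminin, nidogen and Sparc as well.

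The table holds 808 cells, of which 670 had 4000 or more detected genes and were used. They had a median of 510306 UMIs (unique molecular identifiers, each standing for an RNA molecule that was counted). The kept groups held from 20 cells (d8c) to 86 cells (d6p), with 72 at d0, 67 at d12, 51 at d12c and 38 at d20. Depth differed by group, with the lowest median at d20 (195480 UMIs) and the highest at d2 (1055206). None of the 24 d12c cells numbered 25 to 48 passed, and the cells numbered 1 to 24 and 49 to 96 are given apart because they were known to differ in fibroblast markers, so that this difference itself is no finding. The cell names do not show which of the 10 deposited samples a cell came from. All cells were therefore 1 sample without replicates, no test was made, and the only measure of spread between sets of cells is the mean over runs of up to 24 consecutive cell numbers, which are not stated to be libraries. Levels are UMIs scaled to the total of the cell (CPM). Differences are between means of log2(CPM + 1) over cells, and a gene was counted as higher or lower when the means differed by over 1. Intervals are exact at 95%, Poisson for sums of UMIs and Clopper-Pearson for shares, and hold counting error alone. Where no cell held a UMI, the limit given is 3 cells of the total.

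The labels of the ends of the course were checked with marker genes. The summed level of 10 fibroblast markers had a median of 3239 CPM at d0 (88.5 to 13884), 10932 at d12 and 21.3 at d20 (0 to 1047), with 2 of the 10 at 0 in all d20 cells. In d12c cells it had a median of 6472 CPM for those numbered 1 to 24 and 21.4 for those numbered 49 to 96, the difference for which they were set apart. The sum over 11 markers of XEN and parietal endoderm had a median of 156 CPM at d0, with 2 of the 11 at 0 in all cells. It was 1947 at d12, where *Thbd* alone had a mean of 1192 CPM, and 3716 at d20, with none at 0. Much of the d20 sum came from *Cited1* (mean 2027 CPM) and *Sox17* (982 CPM). Of the 11 markers 8 were higher at d20 than at d0 and 2 were lower, beside 15.0% and 25.1% of all genes tested. *Thbd* had a mean of 20.9 CPM at d0 and 26 at d20. Endothelial and macrophage markers had a median of 0 at d0 and at d20. The d0 cells also held markers of muscle and pericytes, with a median of 2932 CPM, which was 0 at d20. *Acta2* was the highest of them at d0, and it is also expressed by cultured fibroblasts. The part of these changes in the results below was not tested.

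For 7 of the 10 genes, *Agrn*, *Hspg2*, *Lama5*, *Lamb1*, *Lamb2*, *Nid1* and *Sparc*, RefSeq gave 8 promoter windows of 300 bases on the build GRCm38.p6, which is not the build of the count table. The 250 bases before the start are shown for *Lamb1* and *Agrn*, whose CPM were higher at the end of the course, and for *Nid1* and *Hspg2*, whose CPM were lower. Capitals mark GGGCGG or its reverse complement CCGCCC (the SP1 box) and CCAAT or ATTGG (the CCAAT box). They lie at chr12:31265043-31265292 on the plus strand, chr4:156197489-156197738 on the minus strand, chr13:13437352-13437601 on the plus strand and chr4:137468553-137468802 on the plus strand.
Lamb1: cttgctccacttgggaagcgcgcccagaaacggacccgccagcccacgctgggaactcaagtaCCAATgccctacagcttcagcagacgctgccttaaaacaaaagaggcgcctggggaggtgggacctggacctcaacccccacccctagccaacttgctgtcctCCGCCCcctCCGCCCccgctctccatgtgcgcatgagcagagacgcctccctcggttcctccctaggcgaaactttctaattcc
Agrn: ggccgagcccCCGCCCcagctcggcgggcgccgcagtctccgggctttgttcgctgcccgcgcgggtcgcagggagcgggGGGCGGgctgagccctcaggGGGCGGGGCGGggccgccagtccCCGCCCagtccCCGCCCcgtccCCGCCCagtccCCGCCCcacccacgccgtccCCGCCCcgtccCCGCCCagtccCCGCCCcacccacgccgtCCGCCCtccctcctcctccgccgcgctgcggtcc
Nid1: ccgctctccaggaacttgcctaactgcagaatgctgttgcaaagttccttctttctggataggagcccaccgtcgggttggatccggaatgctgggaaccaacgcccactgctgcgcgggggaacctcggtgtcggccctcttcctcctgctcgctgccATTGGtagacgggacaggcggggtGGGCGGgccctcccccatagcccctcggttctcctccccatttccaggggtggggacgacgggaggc
Hspg2: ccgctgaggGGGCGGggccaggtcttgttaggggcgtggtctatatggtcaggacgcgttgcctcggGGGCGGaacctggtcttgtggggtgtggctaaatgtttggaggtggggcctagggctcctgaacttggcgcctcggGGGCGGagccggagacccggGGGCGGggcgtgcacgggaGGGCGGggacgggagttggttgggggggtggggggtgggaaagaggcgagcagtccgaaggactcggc

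The promoter of *Lamb1* and that of *Nid1*, genes that ended the course far apart, both held the SP1 box and the CCAAT box. Of the 8 windows of the group, 6 held the SP1 box, against 35.7% of 32851 windows of the same length. The GC content of these 6 ran from 61.3% to 83.3%, beside a median of 52.7% over all windows. The CCAAT box was found in 2 of 8 windows (37.4% of all). The SOX letters ACAAT were found in *Lamb2* alone (31% of all windows), after the start. No window held the GATA letters AGATAA (11.2% of all), the AP-1 letters TGACTCA (5.2%), the TATA letters TATAAA (13.6%) or the retinoic acid receptor letters AGGTCA (16.3%). All were searched on both strands, and ACAAT and CCAAT share their last letters. A match is a description of letters and not of a bound factor.

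Among the laminin chains, the α1 chain gene *Lama1* (mm9 chr17:68046605-68171985, plus strand) had the largest difference between the ends of the course. At d0 its mean was 0.904 CPM (19 UMIs over 72 cells), the median was 0 and the highest cell had 36 CPM. A UMI was found in 6 of these cells (8.33%, interval 3.12 to 17.3%). At d20 the lowest cell had 0, the median was 56.0 and the highest was 467 CPM, with a mean of 94.8 and a UMI in 89.5% of the 38 cells. Of these, 23 lay above the highest d0 cell, although the ranges overlapped because d20 cells without a UMI remained. With all cells drawn down to 50000 UMIs, the share with a UMI was 2.82% at d0 and 72.2% at d20.

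The level of *Lama1* was low until d2 (0.201 CPM at d1, 0.512 at d2) and was between 4.00 and 12.3 CPM in every group from d3 to d12. Within this stretch the means of neighbouring groups did not differ beyond the spread of their runs, the colony cells of d8c, a single run at 9.63 CPM, aside: at d4 the runs went from 2.35 to 23.7 CPM. In d12c cells numbered 49 to 96 the mean was 35.0 CPM (runs 30.0 and 39.9), above all runs at d12 (3.67 to 15.9) and below all runs at d20 (53.7 to 121). In d12c cells numbered 1 to 24 the mean of 41.4 CPM was set by a cell at 633 CPM and was 11.8 without it. Thinned to equal depth, the share of cells with a UMI was 28.8% at d4, 7.41% at d6p, 15.2% at d12, 50.0% in the d12c cells numbered 49 to 96 and 72.2% at d20.

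*Lamb1* (chr12:31950099-32014509, plus strand), the β1 chain, was found from the start. It had a mean of 71.6 CPM at d0 (SD over cells 87.4, n = 72 cells), a lowest cell at 0, a median of 34.4 and a highest cell at 483. At d20 these were 323 (SD over cells 356, n = 38 cells), 4.49, 175 and 1757 CPM. Every d20 cell held a UMI, also after thinning, and 35 of the 38 lay above the d0 median, with 11 above the highest d0 cell. The d20 runs (292 to 375) stood above the runs of every other group, of which the highest was 143 CPM at d6p. From d0 to d12 all group means were between 44.8 and 106 CPM. A gene model on the opposite strand, Gm11053, overlaps *Lamb1*, and it is not stated that counting used the strand.

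*Lamc1* (chr1:155066052-155179916, minus strand), the γ1 chain shared by most laminins, went down before it went up. Its mean was 42.0 CPM at d0 (runs 22.3 to 67.9), 20.8 at d1, 9.09 at d2 (runs 6.95 to 11.2), 28.8 at d12 (runs 22.3 to 35.7) and 93.5 at d20 (runs 75.6 to 105). At d20 the lowest cell had 0, the median was 61.7 and the highest was 408 CPM. The runs of d2 lay below all those of d0, and those of d20 above them. The lowest mean was that of d8c, 6.04 CPM. The d12c cells numbered 49 to 96 had a mean of 67.9 CPM but a median of 9.98, and the mean without the highest cell was 45.1. The pseudogene Gm8818 overlaps *Lamc1* on the opposite strand.

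*Lamb2* (chr9:108382193-108392861, plus strand), the β chain that replaces β1 in other laminins, had a lower mean at d20 than at d0. Its mean was 26.1 CPM at d0 (runs 19.4 to 32.3), 51.9 at d6p (48.8 to 56.5), 24.3 at d12 (12.0 to 33.6) and 8.94 at d20. The d6p and d8 runs stood above those of d0, and d0 and d12 did not differ beyond their runs. At d20 the lowest and the median cell had 0, the highest was 94.6 CPM and the runs went from 0.469 to 26.6, overlapping those of d0. *Lama5* (chr2:179911078-179960564, minus strand), the α chain of many adult epithelia, was scarce. Its mean was at most 10.3 CPM in any set of cells, that of the d12c cells numbered 49 to 96, its median was 0 in every group, and none of 38 d3 cells held a UMI, which allows a share of up to 7.89% (3 of 38 cells).

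*Nid1* (chr13:13529869-13604542, plus strand), the main nidogen, was low at the end. At d0 the lowest cell had 0, the median was 91.0 and the highest was 642 CPM, with a mean of 102 and a UMI in 97.2% of cells. At d20 the lowest cell and the median were 0 and the highest was 67.5 CPM. The mean was 6.84 CPM (93 UMIs, interval 5.52 to 8.38), and 31 of 38 cells had no UMI. The runs went from 0.125 to 11.9 CPM, wider than this interval of counting error. Every d20 cell lay below the d0 median, although the ranges overlapped at 0. At equal depth the share of cells with a UMI was 84.5% at d0 (interval 74.0 to 92.0%), 80.3% at d12, 15.4% in d12c cells numbered 49 to 96 and 13.9% at d20 (4.67 to 29.5%).

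Between d0 and d12 *Nid1* was not steadily falling. It had means of 48.9 CPM at d2, 99.3 at d5, 100 at d6p, 45.5 at d8 and 105 at d12, and the d12 runs (82.9 to 128) overlapped those of d0 (81.0 to 186), whereas those of d8 (35.5 to 51.0) lay below both. In the d12c cells numbered 1 to 24 all 21 had a UMI and the mean was 63.5 CPM. In those numbered 49 to 96 the mean of 29.8 CPM was set by a cell at 739, and it was 5.33 without it. In these and the d20 cells the summed fibroblast markers were compared with *Nid1*. At d20 their median was 76.7 CPM (0 to 1047) in the 5 cells with *Nid1* at 10 CPM or more and 17.2 (0 to 494) in the other 33. In the d12c cells numbered 49 to 96 it was 247 (17.9 to 477) in 4 such cells and 19.8 (0 to 2813) in the other 26. The ranges overlapped in both sets, and the d12c cell with the highest sum was among those low in *Nid1*. The part of remaining fibroblast RNA in this was not tested. *Nid2* (chr14:20570479-20631009, plus strand), the second nidogen, was scarce throughout, with group means of 0.946 CPM (d20) to 7.43 (d8c) and a median of 0 in every group. The gene 2700060E02Rik overlaps it on the opposite strand.

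Of the proteoglycans, perlecan (*Hspg2*, chr4:137024634-137126545, plus strand) was highest in the middle of the course. Its mean was 29.4 CPM at d0 (runs 20.4 to 67.0), 16.4 at d2, 81.3 at d6p (49.2 to 97.4), 35.4 at d12 (28.7 to 40.0) and 18.0 at d20 (16.8 to 20.1). At d6p all 86 cells held a UMI, and the lowest cell had 9.49, the median 66.9 and the highest 244 CPM. The d12c cells numbered 49 to 96 had a mean of 6.71 CPM and a UMI in 33.3% of cells, against 97.0% at d12. Agrin (*Agrn*, chr4:155539399-155571536, minus strand) had a mean of 8.50 CPM at d0 (runs 5.26 to 11.1), 23.1 at d12 (16.2 to 28.5) and 42.3 at d20 (33.5 to 48.5), so that the runs of these 3 groups did not overlap. At d20 the lowest cell had 0, the median was 20.2 and the highest was 180 CPM. The d6p mean of 27.7 CPM was set by a cell at 1066 and was 15.5 without it.

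*Sparc* (chr11:55208002-55233582, minus strand) was found in every kept cell of the course. Its mean was 1899 CPM at d0 (runs 1746 to 2085), 1031 at d2 (710 to 1254), 3879 at d8 (3658 to 4075), 3749 at d12 (2909 to 4173), 1029 in d12c cells numbered 49 to 96 (754 and 1304) and 1276 at d20 (1204 to 1351). The lowest, median and highest cells were 450, 1634 and 5165 CPM at d0, 557, 3690 and 8860 at d8, and 62.9, 1174 and 3020 at d20. The runs of d8 and d12 lay above those of d0, and those of d20 below them, while the cells of the 3 groups overlapped widely. The plot of levels by time point shows the 3 courses side by side: late and high, lost late, and high in the middle.

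**Figure D1:**
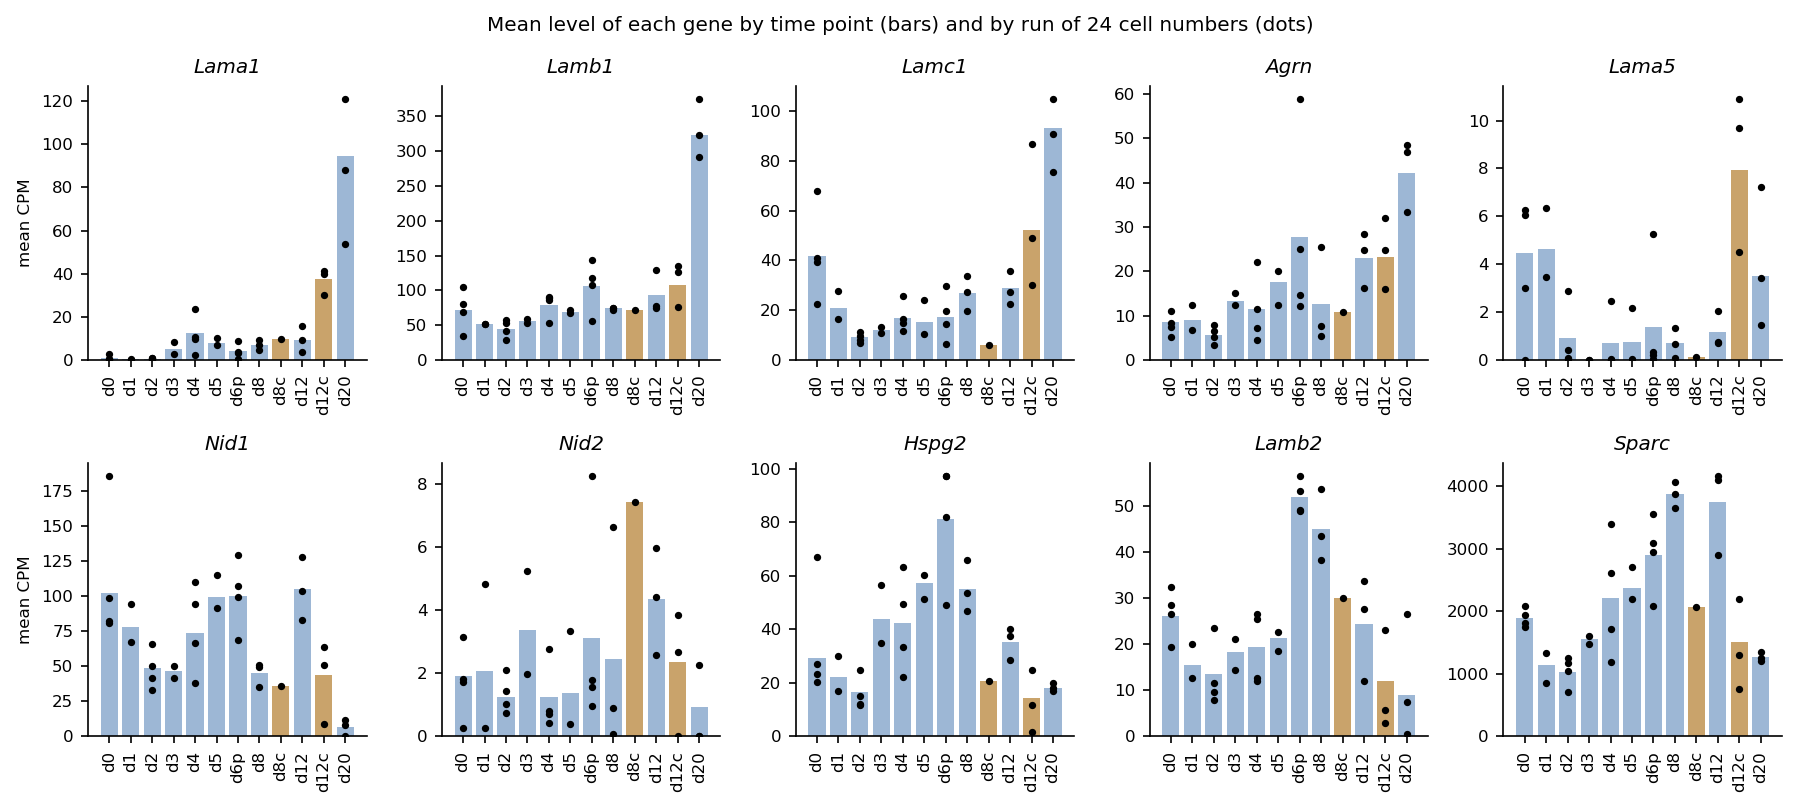
Mean CPM over the kept cells of each time point (bars, brown for cells picked from colonies), with 1 panel a gene and its own linear axis; dots are means of runs of up to 24 consecutive cell numbers. *Lama1*, *Lamb1* and *Agrn* have their highest bar at d20 (94.8, 323 and 42.3 CPM), *Nid1* its lowest (6.84), and *Hspg2* and *Lamb2* peak at d6p (81.3 and 51.9).

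Against d0, d20 cells had 4 of the 10 genes higher: *Lama1* by 5.02, *Lamb1* by 2.55, *Agrn* by 2.38 and *Lamc1* by 1.73 on the log2 scale. As a background, 15.0% of the 9352 genes whose mean reached 1 on this scale in d0 or d20 were higher. The mean CPM of *Lama1* was 105 times that of d0, where a single cell made up much of the d0 level (0.410 CPM without it). Lower were 3 of the 10, *Nid1* by 5.13, *Lamb2* by 1.43 and *Hspg2* by 1.26, beside a background of 25.1%. With no filter on cells *Lamc1* differed by 0.96, so that 3 were higher and 4 lower. *Lama5* and *Nid2* differed by 0.36 and -0.30, and *Lama5* by 1.64 in cells with at least 6000 genes. *Sparc* differed by -0.78, but it was lower by over 1 with no filter on cells (-1.02), at equal depth (-1.06), with edgeR factors (-1.28), in cells with at least 6000 genes (-1.44) and with DESeq2 factors (-1.47). The median difference was 0.03 over the 10 genes, of which 8 reached a mean of 1, and -0.20 over all genes tested. *Lama1* was 44th among all tested genes in order of rise, and *Nid1* was 71st in order of fall. The *Lamb2* difference was -0.73 without the d20 cells numbered 25 to 48, and that of *Hspg2* was -0.86 at equal depth. With a pseudocount of 10 they were -0.67 and -0.55, and by ratio of mean CPM *Hspg2* differed by -0.68.

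The cells also differed in UMIs per UMI of ERCC spike-in RNA, which had a median of 29.5 at d0, 15.4 at d8, 8.06 at d12 and 4.19 at d20. It is not stated that each cell received the same amount. Scaled to spike-in UMIs, the median gene differed by -1.66 between d20 and d0, by -1.18 between d12 and d0 and by -0.57 between d8 and d0. On that scale *Lama1* was still higher at d20 by 3.23, *Agrn* differed by 0.74, *Lamb1* by -0.10 and *Lamc1* by -0.53, so that the last 2 changed direction but stayed above the median gene. *Nid1* was at -5.97, *Sparc* at -3.52, *Hspg2* at -2.87 and *Lamb2* at -2.42, all below the median gene. Thus a higher CPM of *Lamb1* and *Lamc1* is a larger share of the RNA of a d20 cell, and whether it is more RNA per cell cannot be told apart here.

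**Figure D2:**
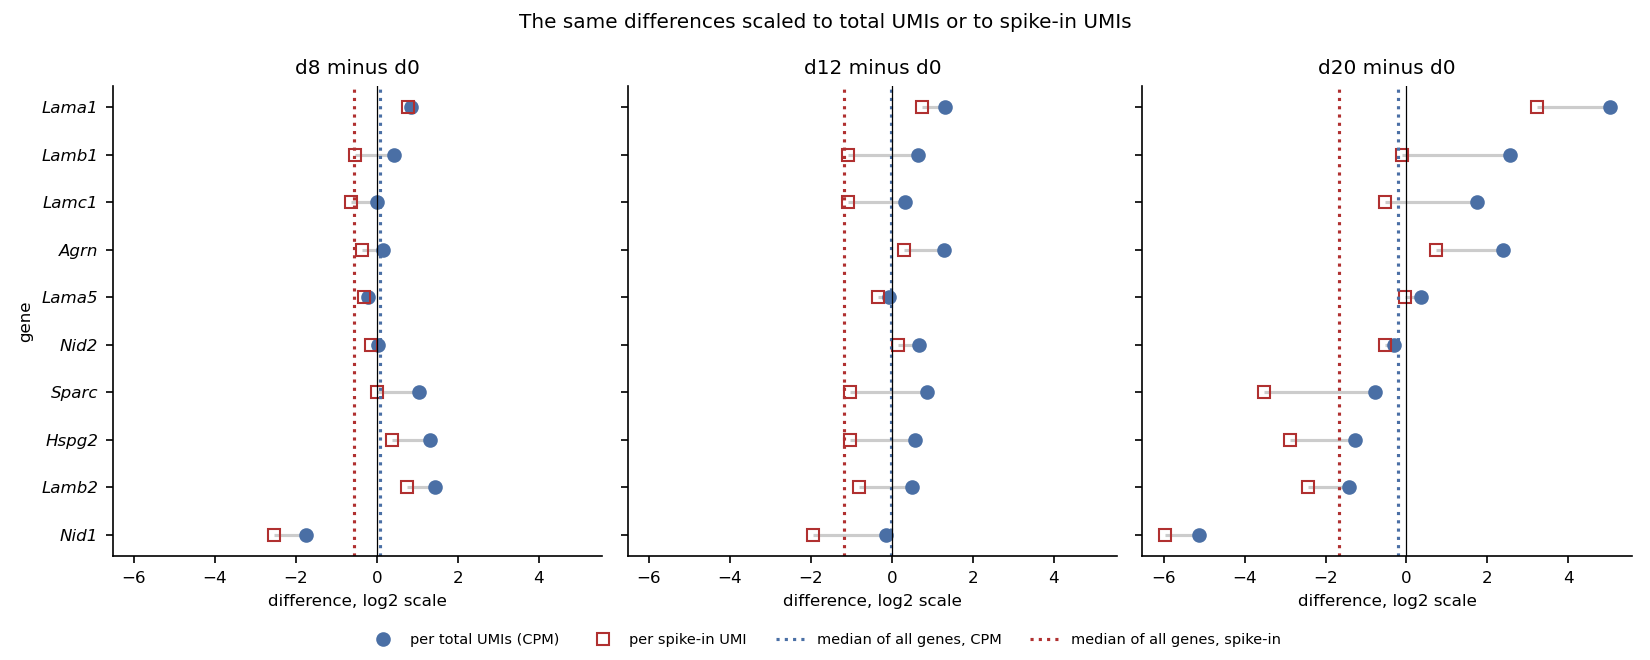
Difference in mean log2 value between d8, d12 or d20 and d0 for each gene, with CPM (filled circles) or per spike-in UMI (open squares); dotted lines are the medians over all genes whose mean reached 1. In d20 minus d0 *Lama1* is right of 0 on both scales (5.02 and 3.23), *Nid1* far left on both (-5.13 and -5.97), and *Lamb1* lies at 2.55 and -0.10.

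In the d12 cells not picked from colonies, few of these genes passed the threshold against d0 on CPM. Higher were 2 of 10, *Lama1* by 1.32 and *Agrn* by 1.30 (background 19.8% of 9611 genes), and none was lower (background 16.3%). *Nid1* differed by -0.14 on CPM and by -1.95 per spike-in UMI, where the median gene was at -1.18. The *Lama1* difference was 0.70 at equal depth, and *Lama1* and *Agrn* were both under 1 per spike-in UMI (0.74 and 0.31). Of the 10 fibroblast markers 8 were higher at d12 than at d0 and 1 was lower, *Osr1* by 3.70.

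At d8 the pattern was another. *Lamb2* was higher than at d0 by 1.44, *Hspg2* by 1.30 and *Sparc* by 1.05, which makes 3 of 10 (background 17.1% of 9557 genes), and *Nid1* was lower by 1.75 (1 of 10, background 13.7%). *Lama1* differed by 0.83 and *Lamc1* by -0.00. The *Sparc* difference was 0.97 without the d8 cells numbered 1 to 24, and per spike-in UMI it was -0.0028. The *Lamb2* difference was 0.75 at equal depth, and that of *Hspg2* 0.71 in cells with at least 6000 genes. By ratio of mean CPM they were 0.76 and 0.88. The *Hspg2* runs of d8 (46.7 to 65.9 CPM) lay within those of d0 (20.4 to 67.0). Of the 10 fibroblast markers 8 were higher at d8.

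Cells of day 8 colonies were compared with the other cells of that day, and no gene of the 10 was higher (background 4.59% of 9278 genes). Lower were 3 of 10, *Lamc1* by 2.09, *Hspg2* by 1.42 and *Sparc* by 1.09 (background 16.0%). The *Lamc1* fall was the 50th largest among the genes tested, and its mean was 6.04 CPM in 20 d8c cells against 26.9 in 62 d8 cells. All d8c cells share numbers 1 to 24, so no spread between runs can be given for them. Of the fibroblast markers 9 of 10 were lower in the colonies.

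The colony cells of day 12 fell into sets by cell number. Those numbered 1 to 24 had none of the 10 genes past the threshold against d12 (backgrounds 2.42% higher and 8.92% lower of 9217 genes). By ratio of mean CPM *Lama1* differed by 2.03 here, which rests on the single cell at 633 CPM. Those numbered 49 to 96 had 1 gene higher, *Lama1* by 2.28 (background 17.3% of 9648 genes), and 4 lower: *Nid1* by 4.42, *Hspg2* by 3.27, *Sparc* by 2.60 and *Lamb2* by 2.58 (background 32.2%). *Lamb1* differed by 0.64 but by -1.02 with no filter on cells, and *Lamc1* by -0.17 but by 1.21 as a ratio of mean CPM. *Lama5* differed by 0.75 and by 1.20 at equal depth. *Nid1* was below the lowest d12 cell in 24 of 30 of them. All 10 fibroblast markers were lower in these cells and of 11 XEN and parietal endoderm markers 7 were higher and 3 lower. Among the latter were *Thbd*, the receptor thrombomodulin, by 7.94 and *Plat*, a plasminogen activator, by 5.55. Per spike-in UMI the differences of *Lama1* (1.29), *Nid1* (-3.82), *Hspg2* (-2.69), *Sparc* (-3.42) and *Lamb2* (-2.10) kept their direction, with the median gene at -0.70.

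Between these colony cells and d20, 4 of 10 genes were higher at d20, *Lamc1* by 1.57, *Hspg2* by 1.45, *Lama1* by 1.43 and *Lamb1* by 1.27 (background 14.9% of 8522 genes), and none was lower (background 10.3%). *Agrn* and *Sparc* were each at 0.95, just inside the threshold. Without the d20 cells numbered 25 to 48 the number higher was 7, with *Agrn* at 1.16, *Sparc* at 1.14 and *Lamb2* at 1.34 added. In cells with at least 6000 genes it was 2, *Lama1* and *Lamb2* (1.82). There *Lamb1* differed by 0.075, *Hspg2* by 0.15 and *Lamc1* by 0.48. By ratio of mean CPM *Lamc1* differed by 0.46. The difference of *Nid1* was -0.57, but it was -1.07 without the d20 cells numbered 1 to 24. By ratio of mean CPM *Nid1* differed by -1.97 and *Lama5* by -1.33, where a single cell set the d12c mean of *Nid1*. This comparison shares the d12c cells with the one before it.

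**Figure D3:**
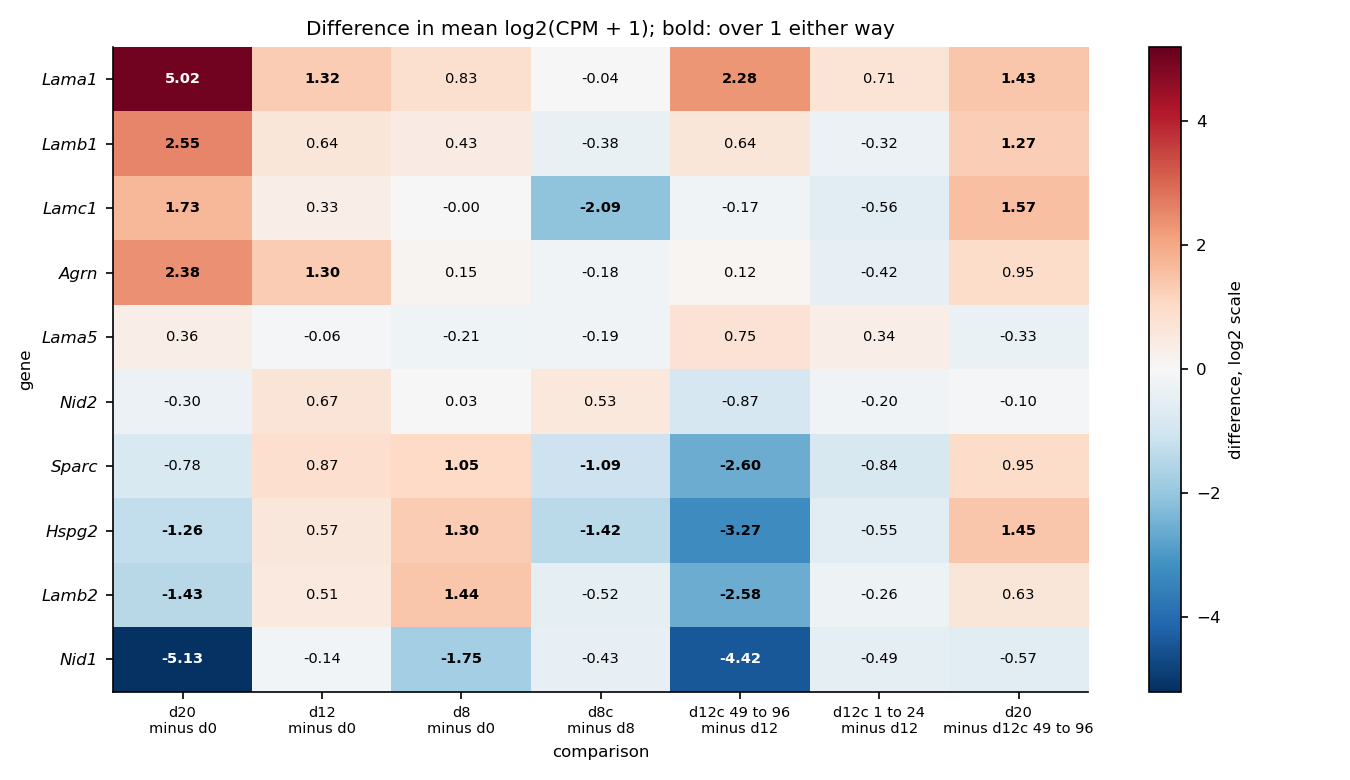
Difference in mean log2(CPM + 1) of each gene (rows) in each of the 7 comparisons (columns), as colour and number; differences over 1 in either direction are bold. *Nid1* has the largest falls (-5.13 at d20 minus d0, -4.42 in d12c 49 to 96 minus d12) and *Lama1* the largest rise (5.02).

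**Figure D4:**
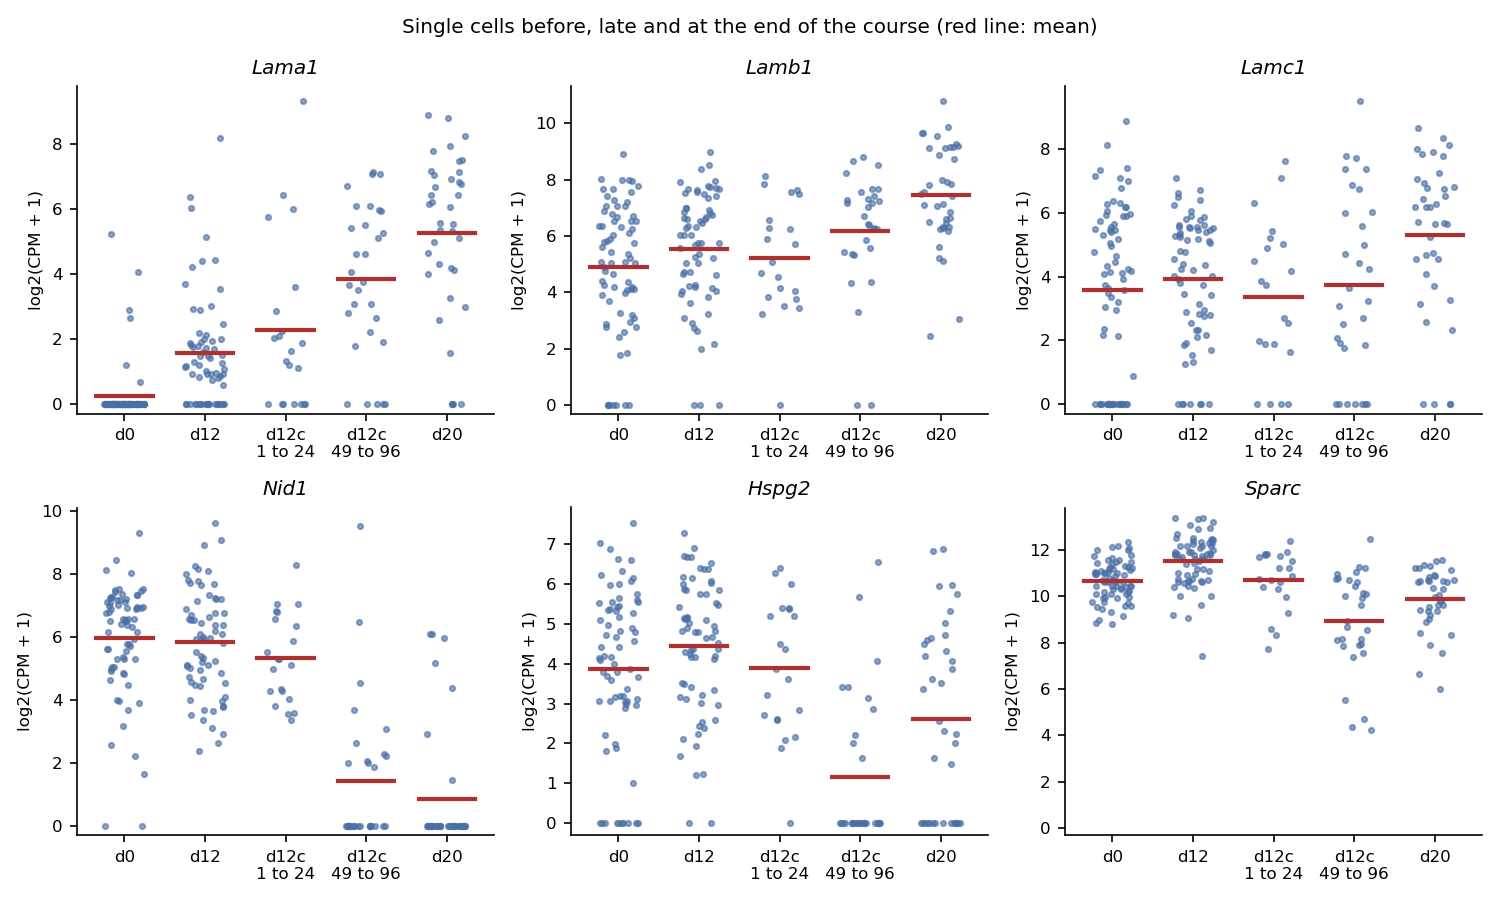
Every kept cell of 5 sets as log2(CPM + 1) for 6 genes, with sideways scatter only to separate points; the red line is the mean. For *Nid1* the cells at 0 number 2 of 72 at d0, 18 of 30 in d12c 49 to 96 and 31 of 38 at d20, while *Lama1* and *Lamb1* have their highest means at d20 (5.26 and 7.45).

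The 3 chains of the laminin of parietal endoderm were then looked for in the same cell. UMIs of *Lama1*, *Lamb1* and *Lamc1* together were found in 5 of 72 cells at d0 (6.94%, interval 2.29 to 15.5%) and in 31 of 38 at d20 (81.6%, interval 65.7 to 92.3%). Thinned to 50000 UMIs the shares were 1.41% of 71 cells and 52.8% of 36 cells. At this depth they were 11% at d4, 7.58% at d12, 14.3% in the early-numbered d12c cells (1 to 24) and 34.6% in the later ones (49 to 96). The pair *Lamb1* and *Lamc1*, with or without *Lama1*, was found in 40.8% at d0 and 66.7% at d20.

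Both nidogens were without a UMI in 30 of 38 d20 cells and in 16 of the 30 d12c cells numbered 49 to 96. At d0 this was so for 2 of 72 cells, and at d12 for none of 67, which allows a share of up to 4.48% (3 of 67 cells). The summed *Lama1*, *Lamb1* and *Lamc1* had a median of 88.8 CPM at d0, 103 at d12 and 317 at d20 (quartiles 182 and 766). The summed nidogens had medians of 91.0, 62.6 and 0 CPM. The plot of shares at equal depth shows both courses.

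**Figure D5:**
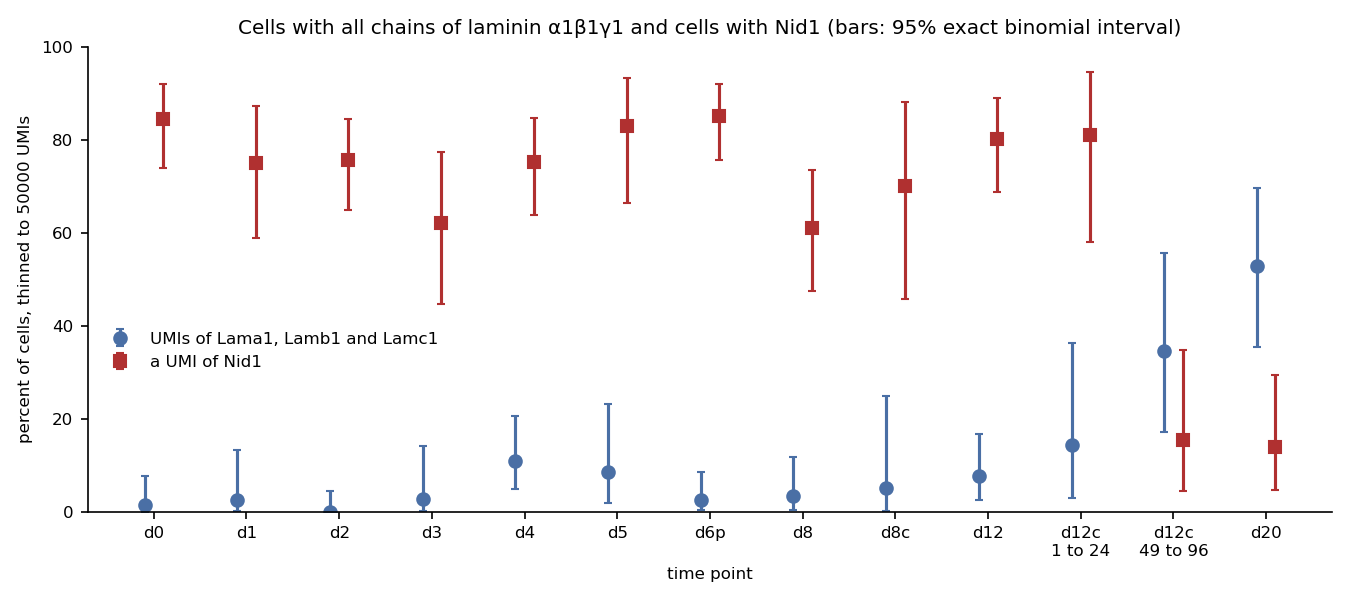
Percent of cells, each thinned to 50000 UMIs, with a UMI of all of *Lama1*, *Lamb1* and *Lamc1* (blue circles) and with a UMI of *Nid1* (red squares) by time point; bars are 95% exact binomial intervals. The *Nid1* share is 61.0% or more up to d12 and 13.9% at d20, where the share with all chains is 52.8%, the highest of the course.

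Levels of the chains were also compared cell by cell within d20. Spearman's rho over 38 cells was 0.63 for *Lama1* and *Lamc1*, 0.61 for *Lamb1* and *Sparc*, 0.57 for *Lamb1* and *Lamc1*, and 0.38 for *Lama1* and *Lamb1*. These CPM share the depth of the cell, with which the rank correlation of *Lama1*, *Lamb1* and *Lamc1* was -0.28, -0.45 and -0.25. In 36 cells at equal depth the 4 values were 0.42, 0.61, 0.46 and 0.32. *Agrn* had values of -0.14 to 0.15 with the other 5 genes compared. Over all 15 pairs of these 6 genes the median at d20 was 0.15, with 9 pairs above 0. The medians of d0, d4, d6p, d8 and d12 ran from 0.06 (d4) to 0.17 (d6p). They are over other pairs, because genes were chosen in each group by the share of its cells with a UMI. These numbered 6 at d0, 7 at d6p and d8, and 8 at d4 and d12. At d0 they included *Lamb2* and *Nid1* but not *Lama1* or *Agrn*, so the medians do not compare the same genes. In those groups the highest single pair was *Lamb2* and *Sparc* at d4 (0.42, and 0.23 at equal depth). At equal depth it was *Lamc1* and *Sparc* at d0 (0.37). In the 30 d12c cells numbered 49 to 96 the median over pairs was 0.21 and all 10 pairs were above 0. The highest was 0.49, of *Lamc1* and *Sparc*, and in 26 cells at equal depth 0.57, of *Lamb1* and *Lamc1*.

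*Sox17* is the endoderm transcription factor named in the title of the study. Among the 319 cells of d3 to d8c, the 22 with *Sox17* at 20 CPM or more were set against the 207 without a UMI of it, weighted by time point. None of the 10 genes differed by over 0.53 (*Agrn*), and *Lama1* differed by 0.15, *Lamb1* by -0.24 and *Nid1* by 0.18. The *Sox17* cells were deeper, with a median of 498146 against 375704 UMIs. At d12 there were 11 such cells and only 4 without a UMI. *Lamc1* differed by 2.23, *Lamb1* by 1.31 and *Nid1* by -1.30 there, with median depths of 601424 and 254886 UMIs, and the 4 cells are too few to read more from it.

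Other chains and partners of the basement membrane were counted from lists. Of 8 further laminin and netrin genes, 1 reached a mean of 1 on the log2 scale in d0 or d20. The others could not pass the threshold. This gene, *Lama4*, an α chain of mesenchyme and vessels, was lower at d20, from 45.8 to 4.28 CPM. Of 16 other components, 11 reached this mean, and 3 were higher and 5 lower. *Col4a2*, a chain of type IV collagen, went from 107 to 641 CPM, a difference of 3.73 (1.09 per spike-in UMI). Its partner chain *Col4a1*, named here after its values were seen, went from 148 to 517 CPM, and per spike-in UMI it differed by 0.36. *Fbln1*, a fibulin, was higher by 3.58 and *Fbln2* lower by 4.47. In d12c cells numbered 49 to 96 *Col4a1* was higher than at d12 by 2.67, and *Col18a1*, the source of endostatin, was lower by 6.31.

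The receptors of these proteins were counted as well. Of 9 receptors of laminin and agrin, 4 reached a mean of 1, and 1 was higher and 2 lower at d20 than at d0. *Itgb1*, the β1 integrin that takes part in most laminin receptors, went from 592 to 88.8 CPM, a difference of -3.54 (-5.85 per spike-in UMI), and dystroglycan (*Dag1*) from 36.2 to 16.2. The α3 integrin *Itga3* was higher by 1.06 on CPM and by 0.12 per spike-in UMI. These counts stand beside the backgrounds of 15.0% and 25.1% given above, which cover only genes that reached a mean of 1.

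Over the 12 groups, the genes outside the 10 whose mean log2(CPM + 1) followed each of them most closely were taken from 10732 genes, by Pearson's r over 12 points that share cells of the same course. For *Lama1* they were *Taf7* (0.958), *Chst15* and *Large2* (each 0.947). For *Lamb1* they were *Ccdc33* (0.967), *B4galnt2* (0.962) and *Map7* (0.959). *Nid1* was followed by *Rtn4* (0.974), *Ubtd2* (0.966) and *Flnc* (0.955), and *Lamb2* by *Lrrc17* (0.960), *Ifngr1* (0.958) and the fibrillar collagen *Col3a1* (0.957). *Hspg2* was followed by *Dpm3* (0.946) and *Sparc* by *Srpx* (0.929), while the closest for *Lamc1* was *Pkia* at 0.873. Some of these genes were scarce: the highest group mean of log2(CPM + 1) was 1.22 for *Ccdc33*, 1.23 for *Large2* and 1.30 for *Pkia*. The 12 groups hold d12c as 1 group, not split by cell number.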

How the data were processed

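Single-cell RNA of the C6FAE course was measured. The deposited values are unscaled counts of UMIs per gene and cell, which the authors obtained from reads mapped to transcripts of mm9, so that PCR copies of a molecule count once. The aligner is not given in the sources used here. The 92 ERCC rows were left out of library sizes, as were 4 rows with repeated names. Time points were read from the cell names.

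Cells were used from 4000 detected genes on, counts were scaled to CPM, and a pseudocount of 1 was added before log2. Thinning to 50000 UMIs left 647 of 670 kept cells. The members and lists were chosen with earlier results of these data known. Named genes are the 10 members, of each list and comparison at most 4 genes past the threshold with the largest differences, and for each member the 3 closest genes over groups. The difference of means was tested on simulated data, where only genes abundant at d0 were changed, by folds well above the threshold. That test does not cover genes scarce at d0, such as *Lama1*, *Lama5* and *Nid2*, or differences near the threshold. Alternatives covered the filter on cells, scaling (edgeR 4.0.16 and DESeq2 1.42.0 factors, spike-in), pseudocount, averaging, depth, threshold and runs of cell numbers. Means without the highest cell and thinned correlations were added after seeing the data. Values were computed with pandas 2.3.3, numpy 2.4.6 and scipy 1.17.1 in Python 3.11.15. Positions are from GENCODE M1 on mm9, counted from 1. The interval of a mean holds the counting error of its UMI sum alone, not the spread between cells or runs. The kept cells held from 17633 to 6004864 UMIs.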

Additional observations from a re-analysis of the deposited data

How the results depend on the processing

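No paired analysis was possible because the columns carry no sample and no test was made. Counts of members past the threshold in either direction are given here. For d20 minus d0 (7) it was 4 with a difference over 2. With a pseudocount of 10 it was 5, of which 4 were higher and 1 lower. By the ratio of mean CPM it was 6 (4 higher and 2 lower), and with spike-in scaling 5 (1 higher and 4 lower). For d12 minus d0 (2) it was 4 with DESeq2 size factors, 5, all lower, with spike-in scaling (which put the median gene at -1.18), 0 with a pseudocount of 10, 4 with medians over cells, 1 at equal depth and 0 over 2. For d8 minus d0 (4) it was 1 with spike-in scaling, 2 with a pseudocount of 10 and 0 over 2. For d8c minus d8 (3) it was 5 with spike-in scaling and 1 over 2. For d12c 49 to 96 minus d12 (5) it was 8 by the ratio of mean CPM. For d12c 1 to 24 minus d12 (0) it was 2 by that ratio. For d20 minus d12c 49 to 96 (4) it was 2 in cells with at least 6000 genes, 2 with a pseudocount of 10 and 0 over 2. Leaving out a run of cell numbers gave 4 to 7, with 1 lower without the d20 cells numbered 1 to 24. By the ratio of mean CPM it was 5, of which 3 were higher and 2 lower. A higher threshold or pseudocount lowers counts by construction, and for the rest the cause was not tested. With spike-in scaling *Lamb1* (-0.10) and *Lamc1* (-0.53) at d20 minus d0 and *Sparc* (-0.0028) at d8 minus d0 changed direction. No other member past the threshold did under any alternative run. Low counts of *Lama5* and *Nid2* limit what can be seen of them, and without replicates the spread between cultures is unknown.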

Other observations

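Genes around the basement membrane differed as well. Of 5 relatives of *Sparc*, *Spock1* was higher at d20 than at d0 by 3.55 (49.6 against 0.129 CPM, and 2.23 per spike-in UMI). *Fstl1*, a secreted follistatin-like protein, was lower by 4.80 and *Sparcl1* by 1.52. Of 11 enzymes that fold or crosslink matrix proteins, 3 were higher and 4 lower, where 15.0% of all genes tested were higher at d20 and 25.1% lower. *Lox* and *Loxl1*, which crosslink collagen and elastin, went from 457 CPM to a level of 0 and from 108 to 0.259 CPM. *P4ha2*, a prolyl hydroxylase subunit, was higher by 2.78 on CPM and by 0.14 per spike-in UMI. In the d12c cells numbered 49 to 96, 6 of these 11 enzymes were lower than at d12 and 1 was higher, beside 32.2% and 17.3% of all genes tested, with *Serpinh1*, the collagen chaperone, lower by 3.80. At d12 against d0, 3 of the 11 enzymes were higher and 1 lower, beside 19.8% and 16.3% of all genes.

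Visceral endoderm and epithelial markers were also counted, against the same 15.0% and 25.1%. Of the 8 visceral endoderm markers, 3 reached a mean of 1 in d0 or d20, and all 3 were higher at d20. They were *Apoe* by 4.88, the endocytic receptor *Lrp2* by 2.51 and its partner *Cubn* by 1.19, and none was lower. All 6 epithelial markers were higher, *Krt8* by 9.20.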
